A study of Mus musculus with 4 samples.

Results

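SOX proteins are transcription factors that bind DNA through an HMG box, and the family is divided into groups by sequence. In the developing neural tube the SoxB1 factors keep progenitors dividing and undifferentiated, the SoxB2 factor Sox21 opposes them, and the SoxC factors switch on neuronal genes in newly born neurons. SoxD factors lack an activation domain of their own and adjust the action of other SOX proteins, and SoxE factors act in neural stem cells and in the glial lineage. The set described here held 10 genes given by symbol, of 24971 genes counted in all. The members were Sox1, Sox2 and Sox3 (SoxB1), Sox21 (SoxB2), Sox4, Sox11 and Sox12 (SoxC), Sox5 (SoxD), and Sox8 and Sox9 (SoxE).

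The RNA came from mouse embryos of the C57BL/6 background at E12.5, when neurons of the spinal cord are being born. There were 2 libraries labelled Lbx1Δ/Δ, a mutation of the gene for the homeodomain factor Lbx1 of dorsal interneurons, and 2 labelled WT, numbered 1 and 2 within each genotype. Each library pooled the neural tubes of 1 genotype from 1 litter, and the labels state neither the level of the tube taken nor the deleted part of Lbx1. Libraries 2 and 1 labelled Lbx1Δ/Δ held 16853984 and 17250143 reads, and WT libraries 2 and 1 held 16948717 and 20579803. Levels are given as CPM, counts scaled to the library total. Fitted log2 differences come from edgeR, which rescales the libraries by a further factor of 0.993 to 1.015 and tests 10757 genes with enough counts, and SE is the standard error of the log2 difference. Lbx1 was at 387 and 113 CPM in libraries 2 and 1 labelled Lbx1Δ/Δ, against 81.4 and 39.8 CPM in WT libraries 2 and 1. The targeted gene was thus higher in the libraries labelled mutant, so genotype is used here as a label only. Nothing in the labels says that WT and mutant libraries of the same number share a litter, and p-values measure the spread between these pools.

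The groups can be seen in the DNA that encodes the start of the HMG box, shown here because counts of close relatives can be confused where their letters match. The stretches below are the coding strand, 5′ to 3′, from GENCODE mouse transcripts of build GRCm38. Capitals mark bases that differ from Sox2.
Sox2 (Sox2-201, bases 138 to 197): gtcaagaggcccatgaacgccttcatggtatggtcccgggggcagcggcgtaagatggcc
Sox1 (Sox1-201, bases 1217 to 1276): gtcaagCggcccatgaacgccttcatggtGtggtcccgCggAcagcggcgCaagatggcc
Sox21 (Sox21-201, bases 1417 to 1476): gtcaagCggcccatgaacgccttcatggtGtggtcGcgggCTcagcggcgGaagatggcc
Sox4 (Sox4-201, bases 867 to 926): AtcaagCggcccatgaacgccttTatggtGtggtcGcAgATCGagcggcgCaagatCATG
Sox11 (Sox11-201, bases 311 to 370): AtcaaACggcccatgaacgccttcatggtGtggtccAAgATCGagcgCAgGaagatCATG
Sox12 (Sox12-201, bases 466 to 525): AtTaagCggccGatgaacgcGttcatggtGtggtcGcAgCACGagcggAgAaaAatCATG
Sox8 (Sox8-201, bases 459 to 518): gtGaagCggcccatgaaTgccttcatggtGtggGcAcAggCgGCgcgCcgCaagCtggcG
Sox5 (Sox5-201, bases 1778 to 1837): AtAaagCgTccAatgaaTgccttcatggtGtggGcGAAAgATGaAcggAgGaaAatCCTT
Sox3 and Sox9 are named only. Over 207 bases from the same starting point, Sox1 and Sox2 were 90.3% identical and Sox21 was 87.9% identical to Sox2. Sox4 and Sox11 were also 90.3% identical, and Sox12 was 85.5% identical to Sox4 and 84.1% to Sox11. Between groups the identity was lower, with 67.1% for Sox2 and Sox11, 70.0% for Sox2 and Sox8 and 55.1% for Sox5 and Sox8. Stretches shared by close relatives can take reads from either gene, and how such reads were counted is not given in the sources used here. Whether any counted read of a member was shared in this way was not tested.

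Of the 10 members, 9 passed the filter on low counts and had at least 347 reads in every library. The lowest level was that of Sox8 in library 1 labelled Lbx1Δ/Δ, at 20.1 CPM with an exact 95% Poisson interval of 18.1 to 22.4 CPM, which covers counting error only. These 9 genes had a single RefSeq accession each. Sox5, the remaining member, had 4 accessions and was listed at 0 counts for each of them in every library. That value does not measure the absence of Sox5. Among the 949 genes with 4 accessions 41.9% were at 0 throughout, against 30.2% of genes with a single accession. Pax6 and Mcm5, a progenitor transcription factor and a DNA replication factor chosen after their values were seen, were also listed at 0 and have 8 and 2 accessions. SoxD was therefore not measured here through Sox5. Of the other SoxD genes, Sox13 had a single accession and was at 75.9 and 72.3 CPM in libraries 2 and 1 labelled Lbx1Δ/Δ, against 61.1 and 66.1 CPM in WT libraries 2 and 1. Sox6, with 6 accessions, was below 1 CPM in every library.

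**Figure D1:**
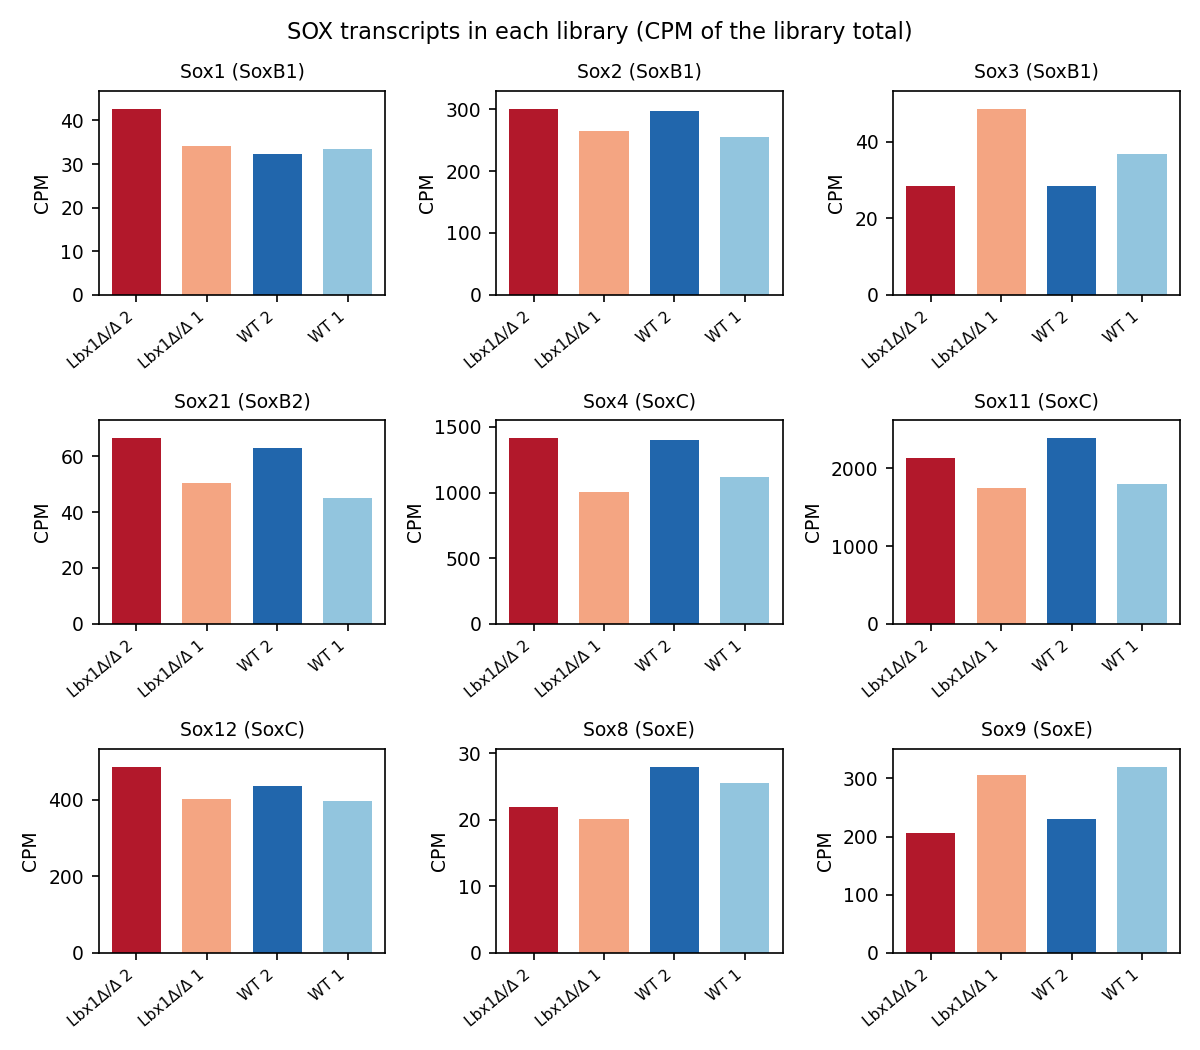
Levels of the 9 counted SOX genes in each library, as CPM of the library total on linear axes from 0, with 1 bar per library. Sox3 and Sox9 were lower in both libraries numbered 2 (dark bars) than in both numbered 1 (pale bars). Sox2, Sox21, Sox4, Sox11 and Sox12 were higher in both, though Sox2 and Sox12 did not pass edgeR's test. Sox5, listed at 0 in every library, is left out.

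By genotype label, no SOX gene of progenitors and neurons was called in the test across all genes. No member passed edgeR's test (0 of 9, with 0 also by DESeq2), and 0 members had an unadjusted p below 0.05. Across all 10757 genes edgeR called 0.0%, with 55 (0.511%) at an unadjusted p below 0.05. The fitted log2 differences, labelled Lbx1Δ/Δ minus WT, ran from −0.36 to 0.23 with a median of 0.019 over the 9 members, beside a median of −0.0026 over all genes tested.

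Within SoxB1, the widely expressed progenitor factor Sox2 averaged 283 ± 24.6 CPM in the libraries labelled Lbx1Δ/Δ and 276 ± 30.1 CPM in WT (SD, n = 2 each). Its log2 difference was 0.019 (SE 0.17), with a 95% interval of −0.41 to 0.45. Sox1, which marks committed neural progenitors, was at 42.6 and 34.2 CPM in libraries 2 and 1 labelled Lbx1Δ/Δ, against 32.3 and 33.4 CPM in WT libraries 2 and 1. Both libraries labelled Lbx1Δ/Δ lay above both WT libraries, though library 1 did so by less than its counting error. The log2 difference was 0.21 (SE 0.21, 95% interval −0.34 to 0.76), and it was 0.056 without library 2 labelled Lbx1Δ/Δ and 0.36 without library 1 labelled Lbx1Δ/Δ. Sox3, the X-linked SoxB1 gene, averaged 38.4 ± 14.2 CPM in the libraries labelled Lbx1Δ/Δ and 32.6 ± 5.83 CPM in WT (SD, n = 2 each). Its genotype difference was 0.40 on the log2 scale between the libraries numbered 1 and −0.0039 between those numbered 2.

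Sox21, the SoxB2 factor, had a log2 difference of 0.097 (SE 0.26). The SoxC genes, which are needed for neuronal gene expression and for the survival of young neurons, had log2 differences of −0.072 (SE 0.24) for Sox4, −0.12 (SE 0.23) for Sox11 and 0.077 (SE 0.17) for Sox12. Their 95% intervals were −0.71 to 0.57, −0.73 to 0.49 and −0.37 to 0.53. Each interval is for a single gene and does not give the smallest difference that the test adjusted over all genes could call. In that test Lbx1, with a log2 difference of 2.0 (SE 0.68), was not called either (edgeR adjusted p = 0.9998). With replicate number as a further term in the fit, Lbx1 was called at 1.88 (SE 0.13, edgeR adjusted p = 1.2e-06).

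Of the counted members, Sox8 had the lowest fitted value by genotype. This SoxE gene, which works beside other SoxE factors in glial precursors, was at 21.9 and 20.1 CPM in libraries 2 and 1 labelled Lbx1Δ/Δ, against 27.9 and 25.5 CPM in WT libraries 2 and 1. The groups did not overlap, and the difference was −0.35 between the libraries numbered 2 and −0.34 between those numbered 1 on the log2 scale. The fitted log2 difference was −0.36 (SE 0.21, 95% interval −0.90 to 0.19), with an unadjusted p of 0.149 and an adjusted p of 0.9998 by edgeR. Leaving out each library in turn gave −0.41 to −0.30. Among all genes tested, 9.31% had both libraries labelled Lbx1Δ/Δ below both WT libraries, as Sox8 did, and 11.3% had both above, as Sox1 did. A count of 1 member each way among 9 is near those shares. Sox9, a factor of neural stem cells and of the switch to gliogenesis in the mouse spinal cord, averaged 256 ± 70.8 CPM in the libraries labelled Lbx1Δ/Δ and 275 ± 63.5 CPM in WT (SD, n = 2 each), a log2 difference of −0.11 (SE 0.29).

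More genes were called by replicate number than by genotype label, which was fitted alone. With both terms in the fit, 92 genes were called by genotype label. In the edgeR fit with genotype as a further term, 35.6% of the 10757 genes tested differed between the libraries numbered 2 and those numbered 1, with 1914 higher and 1919 lower in number 2. Of the 9 counted SOX genes, 5 passed that test. Sox21, Sox4 and Sox11 were higher in number 2, where 17.8% of all genes were called higher, and Sox3 and Sox9 were lower, where 17.8% of all genes were called lower. Among 9 members, the count of 2 lower is near its share and the count of 3 higher is above its own, but both rest on few genes. Without regard to the test, 5 members lay higher in both libraries numbered 2 than in both numbered 1, as 34.1% of all genes did, and 2 lay lower, as 31.9% did. The number of calls changed when a library was left out. Over all genes, leaving out WT library 1 left 1 call and leaving out library 1 labelled Lbx1Δ/Δ left 6, against 2387 and 3917 calls without the libraries numbered 2 labelled Lbx1Δ/Δ and WT. With 3 libraries the genotype term was dropped as well and the spread came from the number that still had 2 libraries, while the 5 called members kept their direction in each of these fits. The number may stand for litter, day or any other step, which the labels do not state.

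**Figure D2:**
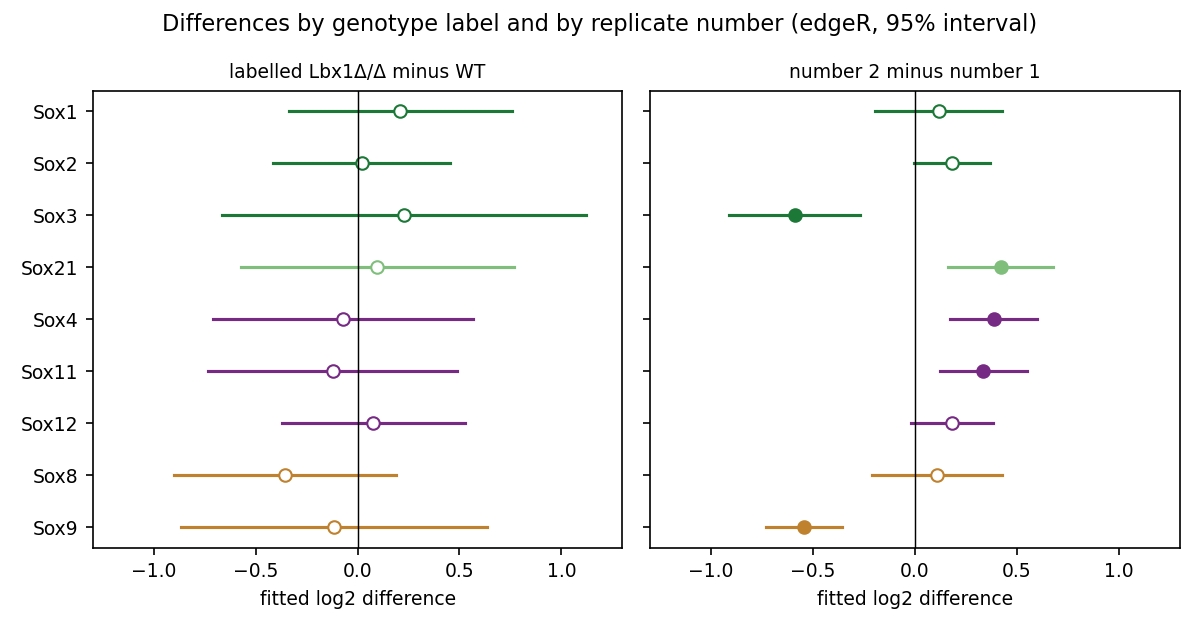
Fitted log2 differences (x axis) of the 9 counted SOX genes (y axis), labelled Lbx1Δ/Δ minus WT on the left and number 2 minus number 1 on the right, with 95% intervals from edgeR as lines. Filled points passed an adjusted p of 0.05. Green is SoxB, purple SoxC and brown SoxE. All 9 genotype intervals span 0, and 5 number intervals belong to genes that passed.

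The SoxB1 genes did not move together by number. Sox3 was at 28.4 CPM in library 2 labelled Lbx1Δ/Δ and 28.4 CPM in WT library 2, against 48.5 CPM and 36.7 CPM in the libraries numbered 1 labelled Lbx1Δ/Δ and WT. It was lower in number 2 within both genotypes, by a log2 difference of −0.77 between the libraries labelled Lbx1Δ/Δ and −0.37 between the WT libraries. The fitted difference was −0.59 (SE 0.15, edgeR adjusted p = 0.0061), or 0.665 times the level in number 1. Leaving out WT library 1 or library 1 labelled Lbx1Δ/Δ gave log2 differences of −0.80 and −0.38, with edgeR adjusted p-values of 0.112 and 0.285. Sox2 was at 300.2 and 298 CPM in the libraries numbered 2 labelled Lbx1Δ/Δ and WT, against 265 and 255 CPM in those numbered 1. These groups did not overlap either, in the direction opposite to Sox3, but the fitted difference of 0.18 (SE 0.088) did not pass (edgeR adjusted p = 0.123). Sox1 had a log2 difference of 0.12 (SE 0.15), with 0.32 between the libraries labelled Lbx1Δ/Δ and −0.046 between the WT libraries. The ratio of Sox3 to Sox2 counts within a library was 0.0945 and 0.0956 in the libraries numbered 2 labelled Lbx1Δ/Δ and WT, against 0.183 and 0.144 in those numbered 1. Such a ratio compares libraries for the same pair of genes and not the level of one gene with that of the other.

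Sox2 lies within the span of Sox2ot, a long noncoding RNA gene. Sox2ot had 559 and 628 counts in the libraries numbered 2 labelled Lbx1Δ/Δ and WT, against 485 and 481 in those numbered 1, a log2 difference of 0.43 (SE 0.15, edgeR adjusted p = 0.039). Sox1 lies in the same way within Sox1ot, which had 67 to 108 counts per library. The strand setting of the counting is not given in the sources used here, so reads where such genes overlap cannot be told apart.

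Sox21, which promotes neuronal differentiation in chick neural tube, was higher in number 2. It was at 66.5 and 62.9 CPM in the libraries numbered 2 labelled Lbx1Δ/Δ and WT, against 50.3 and 45.1 CPM in those numbered 1. Both libraries numbered 2 lay above both numbered 1, and the fitted log2 difference was 0.42 (SE 0.12, edgeR adjusted p = 0.0126), a 1.34-fold level. Leaving out WT library 1, library 1 labelled Lbx1Δ/Δ or library 2 labelled Lbx1Δ/Δ gave log2 differences of 0.33, 0.51 and 0.40, with edgeR adjusted p-values of 0.319, 0.157 and 0.0879. Gm4675, a noncoding gene that overlaps Sox21, had 32 to 59 counts per library.

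The SoxC genes all had higher fitted values in number 2, and Sox4 and Sox11 passed the test. Sox4 was at 1415 and 1398 CPM in the libraries numbered 2 labelled Lbx1Δ/Δ and WT, against 1007 and 1120 CPM in those numbered 1. The groups lay apart, with a fitted log2 difference of 0.39 (SE 0.10, edgeR adjusted p = 0.00711), a 1.31-fold level. Sox11, the SoxC gene with the most reads, was at 2137 and 2389 CPM in the libraries numbered 2 labelled Lbx1Δ/Δ and WT, against 1742 and 1792 CPM in those numbered 1. Its fitted log2 difference was 0.34 (SE 0.10, edgeR adjusted p = 0.0158), a 1.26-fold level. Without WT library 1 the log2 difference was 0.45 for Sox4 and 0.35 for Sox11 (adjusted p = 0.158 and 0.264), and without library 1 labelled Lbx1Δ/Δ it was 0.32 for both (adjusted p = 0.226 and 0.254). Sox12, a weaker activator than the other SoxC factors, was at 485 and 436 CPM in the libraries numbered 2, against 402 and 397 CPM in those numbered 1, and its log2 difference of 0.18 (SE 0.095) did not pass (edgeR adjusted p = 0.148). Summed over each group, SoxC counts were 10.9 and 11.8 times SoxB1 counts in the libraries numbered 2 labelled Lbx1Δ/Δ and WT, against 9.05 and 10.2 times in those numbered 1. That ratio was 1.20 times as high in number 2 as in number 1 between the libraries labelled Lbx1Δ/Δ, and 1.16 times between the WT libraries.

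Sox9 had the smallest p of the members by number and was lower in number 2. It was at 206 and 230 CPM in the libraries numbered 2 labelled Lbx1Δ/Δ and WT, against 306 and 320 CPM in those numbered 1. The groups lay far apart relative to their spread, with means of 218 ± 17.1 CPM and 313 ± 9.79 CPM (SD, n = 2 each). The fitted log2 difference was −0.54 (SE 0.088, edgeR adjusted p = 0.000167), or 0.686 times the level in number 1, with −0.57 between the libraries labelled Lbx1Δ/Δ and −0.48 between the WT libraries. The adjusted p was 0.149 without WT library 1 and 0.105 without library 1 labelled Lbx1Δ/Δ, with log2 differences of −0.52 and −0.57. Sox8, the other SoxE gene, had a log2 difference of 0.11 (SE 0.15, edgeR adjusted p = 0.614). The ratio of Sox9 to Sox2 counts was 0.685 and 0.772 in the libraries numbered 2 labelled Lbx1Δ/Δ and WT, against 1.15 and 1.25 in those numbered 1. The ratio of Sox11 to Sox9 counts was 10.4 in both libraries numbered 2, against 5.70 and 5.61 in those numbered 1.

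**Figure D3:**
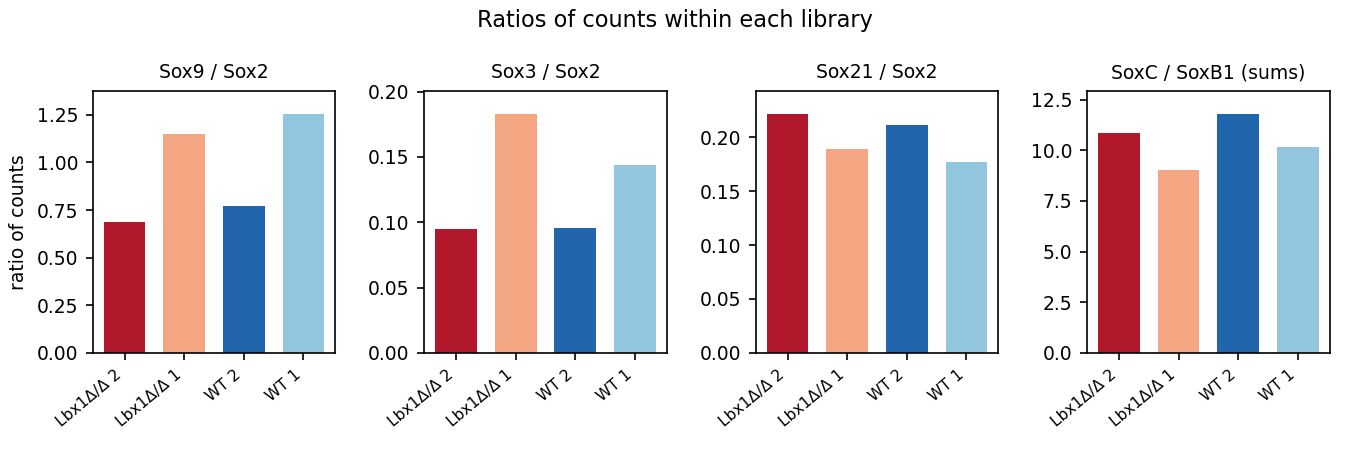
Ratios of counts within each library for 3 pairs of genes and for the summed SoxC over the summed SoxB1 genes, with 1 bar per library and axes from 0. Sox9 over Sox2 was 0.685 and 0.772 in number 2 (dark bars) against 1.15 and 1.25 in number 1 (pale bars).

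Genes that mark the same cell states are given beside the SOX values, since a lower level in bulk tissue can mean fewer cells of a type or less RNA per cell, which cannot be told apart here. The lists were written from textbook knowledge with earlier results of these data known. Genes of postmitotic neurons were higher in number 2 in 14 of 14 tested cases, with a median log2 difference of 0.85. Tubb3, a neuronal tubulin and a known SoxC target, was at 3748 and 3048 CPM in the libraries numbered 2 labelled Lbx1Δ/Δ and WT, against 2021 and 1766 CPM in those numbered 1. Its log2 difference of 0.82 (SE 0.099) compares with 0.39 and 0.34 for Sox4 and Sox11. Ina and Nefl, both neurofilament proteins, and Stmn2, a microtubule regulator, had log2 differences of 1.02, 0.69 and 0.87. The median log2 difference of all genes tested was 0.00014.

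Genes of the cell cycle were lower in number 2 in 12 of 12 tested cases, with a median log2 difference of −0.84. Mki67, a marker of cycling cells, was at 424 and 575 CPM in the libraries numbered 2 labelled Lbx1Δ/Δ and WT, against 914 and 812 CPM in those numbered 1. Top2a, Ccnd2 and Pcna, which act in chromosome separation, cell cycle entry and DNA replication, had log2 differences of −0.89, −1.17 and −0.77. Genes of neural progenitors gave no such single direction, with 5 higher, 2 lower and 9 not called of 16 tested and a median of 0.24. Vim and Nes, intermediate filaments of progenitors, had log2 differences of −0.027 (SE 0.098) and −0.14 (SE 0.10), and neither passed. Cdh2, the adhesion protein N-cadherin, and Zic1, a dorsal transcription factor, were higher by 0.37 and 0.30 on the log2 scale. The fitted value of Sox2, 0.18, lay within the range of this list, and that of Sox3, −0.59, lay below its lowest, −0.50 for Hes1, an effector of Notch signalling.

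Among 7 tested proneural genes, which start neuronal differentiation, 3 were higher, 1 was lower and 3 were not called in number 2. Neurod1 was higher by 0.76 on the log2 scale, and Neurog2 was not called (0.037, SE 0.11). Neurod6, known best from forebrain neurons, was at 107 and 84.7 CPM in the libraries numbered 2 labelled Lbx1Δ/Δ and WT, against 0.696 and 3.30 CPM in those numbered 1. Its log2 difference of 5.54 compares with at most 0.59 in size for a SOX member, and the part of tissue composition in the SOX values was not tested. Of 10 tested genes listed as partners and targets of SOX factors, 2 were higher, 2 were lower and 6 were not called. Pou3f3 and Pou3f4, POU factors that can act beside SOX proteins, were higher by 0.42 and 0.47, and Pou3f2 and Pou3f1 had differences of 0.17 and 0.22 that did not pass.

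Sox9 is also a factor of cartilage and of neural crest derivatives, so their markers are given whole. Of 15 tested genes of cartilage and mesenchyme 7 were lower in number 2, 0 were higher and 8 were not called, with a median log2 difference of −0.34. Their summed level was 4658 and 5340 CPM in the libraries numbered 2 labelled Lbx1Δ/Δ and WT, against 5061 and 7067 CPM in those numbered 1. The connective tissue collagen Col1a2 was lower by a log2 difference of −0.34, whereas Col3a1, Col1a1 and Col11a1, with −0.25, −0.0096 and −0.23, did not pass. Acan, a defining cartilage proteoglycan, was at 0 in both libraries labelled Lbx1Δ/Δ and at no more than 0.059 CPM in WT. Col2a1, the main cartilage collagen, was at 9.32 and 10.4 CPM in the libraries numbered 2, against 12.6 and 14.5 CPM in those numbered 1, and both of these genes have 2 accessions. Their part in the Sox9 difference was not tested. All 8 tested skeletal muscle genes were lower in number 2, with a median of −1.72, and their summed level ran from 139 CPM in library 2 labelled Lbx1Δ/Δ to 920 CPM in WT library 1. Of 6 tested surface ectoderm genes, 4 were lower, with a median of −1.05.

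Among 6 tested genes of neural crest and Schwann precursors, 2 were higher, 1 was lower and 3 were not called in number 2. Cdh19 and Mitf, with 2 and 3 accessions, were listed at 0, which does not measure their absence. Erbb3, a receptor of Schwann precursors, was lower by a log2 difference of −0.58, close to that of Sox9, whereas Ngfr and Foxd3 were higher by 0.35 and 0.59. Sox10, the SoxE gene of these cells, was at 103 and 85.9 CPM in the libraries numbered 2 labelled Lbx1Δ/Δ and WT, against 97.6 and 86.5 CPM in those numbered 1 (log2 0.014, SE 0.090). Whether Sox10 differed from Sox9 in this was not tested. In the glial list, which includes genes of radial glia, 2 of 5 tested genes were higher, 1 was lower and 2 were not called. Fabp7 and Slc1a3, a lipid-binding protein and a glutamate transporter of radial glia, were higher by 0.78 and 0.81. Tnc, an extracellular matrix protein, was lower by a log2 difference of −1.41, and Hey1, a Notch effector, had −0.024. Among 6 tested oligodendrocyte lineage genes 3 were higher and 3 were not called. Olig1 was at 11.9 and 7.55 CPM in the libraries numbered 2 labelled Lbx1Δ/Δ and WT, against 0.522 and 0.486 CPM in those numbered 1. Olig2 was higher by 0.88, and Mbp, with 8 accessions, by 0.58 on the log2 scale. Cspg4, Nkx2-2 and Pdgfra had log2 differences of −0.060, 0.026 and −1.41 and did not pass. Pdgfra was at no more than 1.74 CPM in any library.

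**Figure D4:**
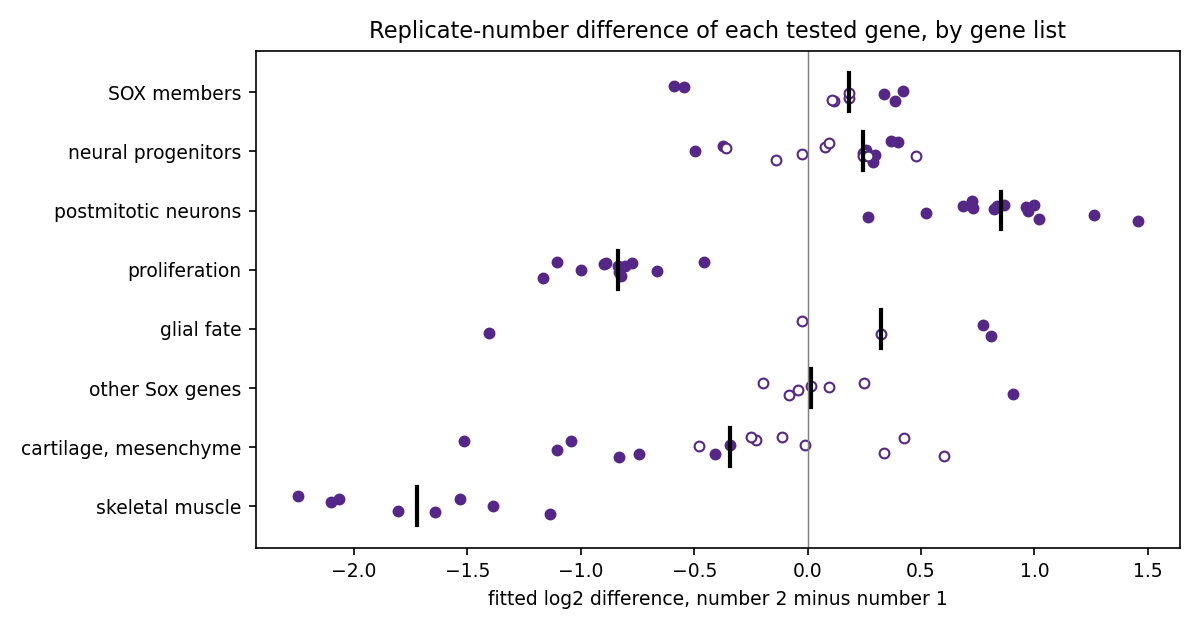
Fitted log2 difference between number 2 and number 1 (x axis) for each tested gene of the SOX set and of 7 other lists (y axis), with 1 point per gene and a black line at the median of each list. Filled points passed an adjusted p of 0.05 by edgeR. All 14 neuron genes lie to the right of 0 and all 12 cell cycle genes to the left, while the 9 SOX genes lie on both sides with a median of 0.18.

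Of the 9 other Sox genes looked at, 7 passed the filter, and 1 of these was called by number. Sox14, a SoxB2 gene of interneurons, was at 14.4 and 11.0 CPM in the libraries numbered 2 labelled Lbx1Δ/Δ and WT, against 7.88 and 5.59 CPM in those numbered 1. Its log2 difference of 0.91 (SE 0.20, edgeR adjusted p = 0.00239) was in the same direction as that of Sox21, the other SoxB2 gene. Sox7 and Sox18, SoxF genes of endothelial cells, had log2 differences of −0.082 (SE 0.14) and −0.20 (SE 0.15), and the endothelial marker list had a median of −0.059 with 1 higher and 4 not called of 5 tested. Sox13 (−0.041, SE 0.11), Sox30 (0.25, SE 0.53) and Sox6 (0.096, SE 0.83) did not pass. Sox17, with 5 accessions, was listed at 0, which does not measure its absence, as for Sox5. Sox15 was below 0.3 CPM in every library. By genotype label 0 of the 7 passed edgeR's test, with fitted log2 differences of −0.54 to 0.41.

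Genes with the profile most like a member's were found by the root mean square distance between centred log2 CPM over the 4 libraries, among 5680 other tested genes with a mean of at least 20 CPM. For Sox2 these were Vps41, Exoc3 and Ythdc2, at distances of 0.00726, 0.00999 and 0.0128. Vps41 and Exoc3 encode parts of vesicle tethering complexes and Ythdc2 an RNA helicase. For Sox11 they were Fndc10, B3galnt1 and Stx12, at distances of 0.00957, 0.0173 and 0.0208. Among the members, Sox12 was the nearest to Sox2, at 0.0515, and Sox4 the nearest to Sox11, at 0.0792. Sox3 and Sox9 were the farthest from both, at 0.404 and 0.370 from Sox2 and 0.491 and 0.439 from Sox11. These distances describe 4 libraries and carry no test.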

How the data were processed

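RNA-seq libraries were made from pools of neural tubes with the NEBNext Ultra kit and sequenced on an Illumina HiSeq, per the labels' protocols. TopHat2 2.1.1, featureCounts 4.6.0.1 and edgeR 3.4.3 with build mm9 are named in the submitters' processing notes. The authors deposited raw counts for 41411 RefSeq accessions per library. Of the annotation, strand setting and treatment of shared reads, nothing is given in the sources used here. Accessions were named from a RefSeq table of GRCm38 (41218) and GENCODE vM21 (97), 96 stayed unnamed as genes of their own (0.325% to 0.649% of counts), and counts were summed per symbol.

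Genes were filtered with filterByExpr (minimum count 10, total 15), scaled by TMM and tested with edgeR 4.0.16 in R 4.3.3 (glmQLFit and glmQLFTest, two-sided, Benjamini-Hochberg over all tested genes, threshold 0.05). Genotype was fitted alone, with 2 residual degrees of freedom, and replicate number with genotype as a further term, with 1. Limits of 95% intervals use edgeR's moderated degrees of freedom. The members and lists were chosen with earlier results of these data known. All members were described, with the other Sox genes that passed the filter and up to 4 genes per list with the highest mean CPM. Pax6, Mcm5, Acan, Col2a1, Hes1, Nkx2-2, Pdgfra, Sox2ot, Sox1ot and Gm4675 and genes listed at 0 were named outside that rule. Alternatives were other scalings and filters, DESeq2 1.42.0, the replicate block, no genotype term and leaving out each library. Some genes of the lists are not reported here by name.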

Additional observations from a re-analysis of the deposited data

How the results depend on the processing

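By genotype label, edgeR called 0 genes under each other scaling and filter, with DESeq2 and with each library left out, and 92 with the replicate number as a block (replicate block), none of them a SOX member. The numbers do not pair the samples by their labels, and the differences of number 2 minus number 1 in the libraries labelled Lbx1Δ/Δ and in WT correlated across 10757 genes (r = 0.657), from 2 pairs. By replicate number, 2592 genes were called by DESeq2, 2739 without the genotype term and 3805 to 3979 under the other scalings and filters. With each library left out in turn there were 1 to 3917 calls, in fits on number alone in which a lone library was assumed to vary like the other group. The fitted direction of several members turned with a library left out. By genotype the range was −0.068 to 0.13 for Sox2, −0.21 to 0.57 for Sox3, −0.10 to 0.35 for Sox21, −0.32 to 0.15 for Sox4, −0.30 to 0.093 for Sox11, −0.050 to 0.21 for Sox12 and −0.43 to 0.16 for Sox9, on the log2 scale, while Sox1 kept its direction at 0.056 to 0.36. By number it was −0.065 to 0.30 for Sox1 and −0.094 to 0.29 for Sox8. The other scalings, filters and DESeq2 turned no member's direction in either comparison. With 2 pools per group, small genotype differences could not be detected, and larger ones could also be missed. With genotype fitted alone, Lbx1 was not called at a log2 difference of 2.0 (edgeR adjusted p = 0.9998). With the replicate block Lbx1 was called at 1.88 (SE 0.13, edgeR adjusted p = 1.2e-06). The SE of the genotype difference in that fit was 0.088 for Sox2 and 0.088 for Sox9.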
